A study of Mus musculus with 12 samples.

Results

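Interferon-stimulated genes are the genes that cells switch on when interferon reaches them. A list of 40 such mouse genes was taken by symbol, and every one was found among the 24553 entries that the liver libraries of this study share. An entry joined to a second gene name was kept, and of a repeated name the entry with the highest mean was taken. The values are FPKM, fragment counts divided by transcript length and by the mapped total of the library, so levels of different genes can be compared per length. Tests covered the 11671 entries with an FPKM of 1 or more in 3 or more of the 12 libraries, 39 members among them. Oas3 was not tested, with an FPKM between 0.0714 and 1.03.

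The 4 groups hold 3 libraries each. KO tumors and WT tumors are liver tumors of Setd2 knockout and Setd2 wild-type male mice that had received the liver carcinogen diethylnitrosamine (DEN) once, by intraperitoneal injection at 2 weeks of age and 25 mg/kg, and were killed 8 months later. KO livers and WT livers are normal liver tissue of male mice of the same genotypes, 8 months old and never given DEN. Titles write the knockout as cKO, and the labels state neither the cells nor the promoter through which Setd2 was removed. Tumor and DEN treatment go together in every library, so their effects cannot be told apart. Whether every library is a separate animal is left unsaid by the labels, and p-values measure only the spread between these samples.

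Type I and type III interferons bind cell surface receptors and signal through Jak kinases. Stat2 and Irf9 then act in a complex that binds the interferon-stimulated response element (ISRE) near its target genes. Interferon gamma acts through its own receptor and another element (GAS). The target genes encode sensors of foreign nucleic acid, enzymes that block viral RNA, membrane GTPases and brakes on the response, and in liver they are known mainly from viral hepatitis. Setd2 encodes the enzyme that trimethylates lysine 36 of histone H3.

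Setd2 itself had an FPKM of 3.14, 2.18 and 1.90 in the KO tumors and 4.40, 3.61 and 4.07 in the WT tumors. It had 1.66, 1.93 and 1.32 in the KO livers and 4.84, 3.84 and 4.70 in the WT livers. No KO library reached a WT library of the same tissue. The fall passed the test in liver (difference in log2(FPKM + 1) -1.05 ± 0.14 SE, limma adjusted p = 0.0108; all log2 differences below are on this scale, which understates the ratios of low genes) and did not in tumor (-0.57 ± 0.19, limma adjusted p = 0.188). All 13 hepatocyte marker genes found were tested, and their summed FPKM was 21200 to 39100 in KO tumors, 48400 to 59800 in WT tumors, 34900 to 43800 in KO livers and 41900 to 51400 in WT livers. One of them, Trf, is listed at 0 in WT tumor 1 alone. FPKM of a library summed to between 423498 in KO tumor 1 and 719538 in KO liver 1, and with no read counts in the files the depth behind each value is unknown.

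Promoter windows of 29 members were found in RefSeq for GRCm38.p6, each with 250 bases before and 50 bases after a transcript start. They are described because the members share a way of being regulated that the list's symbols do not show. The core of the ISRE, searched as GAAANNGAAA and, on the other strand, TTTCNNTTTC, was present in windows of 16 of the 29 members (55.2%), against 3.99% of 27025 genes. The GAS letters TTCNNNGAA, which read alike on both strands, were present in 8 of the 29 (27.6%), against 9.55% of all genes. Both motifs overlapped in 1 window, that of Bst2. The 120 bases before the start are shown for 6 members to which the results below return, with matched letters in capitals. The starts used for Oas1a and Gbp3 lie inside the annotated gene, so the last bases shown for them belong to a longer transcript.
Isg15, chr4:156200819-156200938, minus strand: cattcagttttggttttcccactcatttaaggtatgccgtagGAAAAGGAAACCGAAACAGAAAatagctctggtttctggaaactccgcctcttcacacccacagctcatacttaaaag
Oas1a, chr5:120907526-120907645, minus strand: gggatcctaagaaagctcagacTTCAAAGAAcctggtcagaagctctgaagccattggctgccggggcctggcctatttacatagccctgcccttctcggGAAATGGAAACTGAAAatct
Gbp3, chr3:142559924-142560043, plus strand: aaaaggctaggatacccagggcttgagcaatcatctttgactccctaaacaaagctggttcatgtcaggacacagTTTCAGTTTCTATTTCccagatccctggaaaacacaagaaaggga
Gbp7, chr3:142530216-142530335, plus strand: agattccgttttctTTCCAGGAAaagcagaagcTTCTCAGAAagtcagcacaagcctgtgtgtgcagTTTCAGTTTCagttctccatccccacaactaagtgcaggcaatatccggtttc
Irgm1, chr11:48871421-48871540, minus strand: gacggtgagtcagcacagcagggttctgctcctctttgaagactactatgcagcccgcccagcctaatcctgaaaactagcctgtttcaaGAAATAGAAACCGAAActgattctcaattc
Irf1, chr11:53769894-53770013, plus strand: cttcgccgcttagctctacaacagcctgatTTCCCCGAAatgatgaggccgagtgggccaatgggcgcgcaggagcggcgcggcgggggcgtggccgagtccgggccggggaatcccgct

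The stretch of Isg15 holds 3 ISRE cores that overlap into 1 run, those of Oas1a, Gbp3 and Irgm1 hold 2 each, and that of Gbp7 holds 1 beside 2 GAS matches. Irf1 has a GAS match and no ISRE core there. Among tested members, the median log2 difference between KO and WT tumors was 0.683 for the 15 with an ISRE core, 0.619 for the 13 with a window and no such core, and 0.965 for the 11 with no window: Dhx58, Zbp1, Oas2, Mx1, Mx2, Usp18, Parp9, Parp14, Ifi27l2a, Ifi27l2b and Rtp4. The medians with and without the core lay close together. Several members are neighbours: Gbp7, Gbp3 and Gbp2 on chromosome 3, Oasl2 and Oasl1 as well as Oas2, Oas3 and Oas1a on chromosome 5, Rsad2 and Cmpk2 and also Ifi27l2a and Ifi27l2b on chromosome 12, Parp14 and Parp9 and also Mx1 and Mx2 on chromosome 16, and Ifit2, Ifit3 and Ifit1 on chromosome 19. The annotated genes of such a pair lie between 3211 bases (Oas2 and Oas3) and 118571 bases (Oas3 and Oas1a) apart.

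The level of the members spanned a wide range. Mean FPKM over the 12 libraries was 20 or more for 8 members, 5 to 20 for 15 and below 5 for 17. Bst2, which encodes tetherin, a membrane protein that holds budding virus particles to the cell, averaged 331 FPKM. Next came Irf7 at 42.6, Ifi27l2b at 36.3, Irgm1 at 27.6 and Isg15 at 26.5 FPKM. The 341 FPKM of the Stat2 entry cannot be credited to Stat2: the entry is joined with Apof, an apolipoprotein gene that hepatocytes express, and the 2 annotated genes overlap by 753 bases. Oas1a is joined with its paralog Oas1g, Ifit3 with Ifit3b and Eif2ak2 with Gm6548, and reads of these partners, of the Gbp genes and of the Ifi27l2 pair may be shared between copies.

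**Figure D1:**
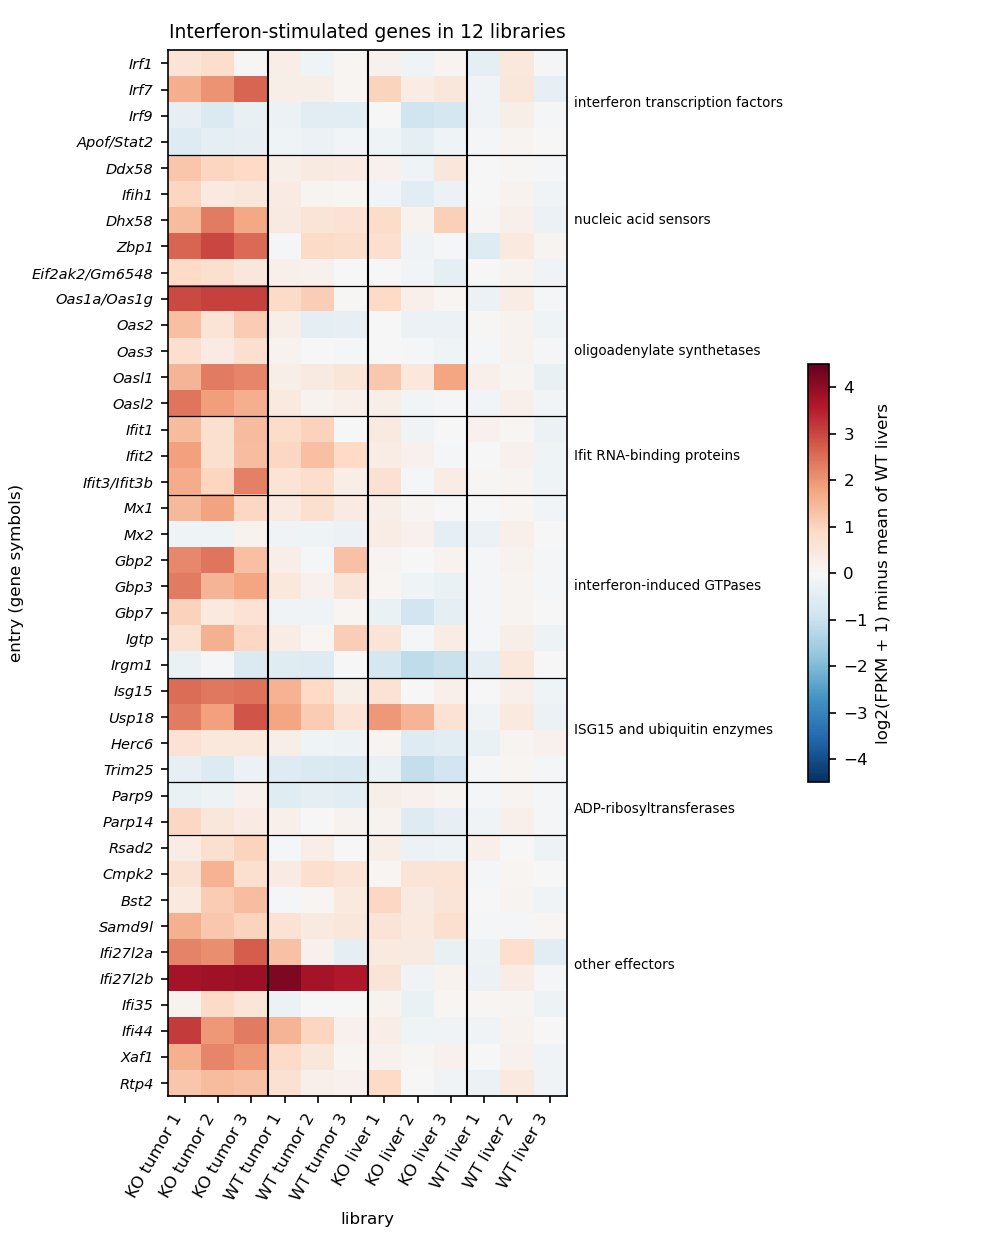
Each row is an entry and each column a library; color gives log2(FPKM + 1) minus the mean of the 3 WT livers, and black lines separate groups and role classes. The 3 KO tumors are redder than the other 9 libraries for most rows, Ifi27l2b is red in all 6 tumors, and the Stat2 (Apof/Stat2), Irf9 and Trim25 rows are not.

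KO tumors were the group with the highest mean for 32 of the 39 tested members (82.1%), as they were for 30.5% of all tested entries. Every KO tumor lay above all 9 other libraries for 23 members (59%), against 7.42% of all entries. The mean log2(FPKM + 1) over the 39 tested members was 3.95 to 3.99 in the KO tumors, 3 to 3.17 in the WT tumors, 2.63 to 3.07 in the KO livers and 2.59 to 2.93 in the WT livers. The exceptions were Ifi27l2b, highest in WT tumors, Mx2 and Parp9, highest in KO livers, and Irf9, Stat2, Irgm1 and Trim25, highest in WT livers. Of all entries 13% were highest in WT tumors, 27.9% in KO livers and 28.7% in WT livers.

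The comparison of KO with WT tumors asks which members differ between tumors labelled Setd2 knockout and those labelled wild type; the fall of Setd2 itself, given above, did not pass the test there. Of the 39 members, 36 had a positive log2 difference (51.9% of all entries did), 28 (71.8%) had all KO tumors above all WT tumors and 1 (2.56%), the Stat2 entry, had them all below. Of all tested entries, 13.8% were separated upward and 10.1% downward. The median log2 difference was 0.756 for the members and 0.018 for all entries. No single member passed limma's test at an adjusted p below 0.05, which 0.0771% of all entries did (9, of which 0.0343% higher and 0.0428% lower). The smallest adjusted p among members was 0.0512. At an unadjusted p below 0.05 there were 26 members higher and 0 lower, against 10.9% and 6.73% of all entries.

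Active oligoadenylate synthetases make the oligoadenylates that activate RNase L. The listed class of that name, in which Oasl1 and Oasl2 are counted, had the largest median log2 difference of the role classes (1.655). Oas1a had 18.3, 20.1 and 20.1 FPKM in the KO tumors and 3.53, 4.35 and 1.60 FPKM in the WT tumors. All 3 KO tumors were alike and the lowest of them was far above the highest WT tumor. The FPKM means stood at a ratio of 6.17, and the log2 difference of 2.36 ± 0.28 (limma adjusted p = 0.0512) was the largest of any member. Oasl2 had 10.8, 7.11 and 5.85 FPKM in the KO tumors and 2.02, 1.5 and 1.59 FPKM in the WT tumors, without overlap (1.69 ± 0.23, limma adjusted p = 0.0512). Oasl1, which in mouse restrains the translation of Irf7, had 16.7, 30.1 and 27.6 FPKM in the KO tumors and 6.37, 7.12 and 8.07 FPKM in the WT tumors (1.62 ± 0.25, limma adjusted p = 0.0597). Oas2 had 4.59, 2.35 and 3.81 FPKM in KO tumors and 1.64, 0.647 and 0.699 FPKM in WT tumors (1.20 ± 0.27, limma adjusted p = 0.109). The untested Oas3 had its 3 highest values, 1.03, 0.57 and 1.01 FPKM, in the KO tumors, against 0.365, 0.236 and 0.151 FPKM in the WT tumors. Outside the list, Oas1c, named again below, was separated upward and Oas1b overlapped. Oas1b had 1.72, 1.14 and 0.888 FPKM in the KO tumors and 1.27, 1.73 and 1.18 FPKM in the WT tumors.

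All 5 sensors of nucleic acid had the KO tumors above the WT tumors, with a median log2 difference of 0.683. Zbp1, which binds Z-form nucleic acid and can start necroptosis, had 31.2, 40.6 and 29.8 FPKM in the KO tumors and 3.96, 8.56 and 7.99 FPKM in the WT tumors. Its groups were separated by a wide gap (2.2 ± 0.29, limma adjusted p = 0.0512). Dhx58, which encodes LGP2, averaged 16.9 ± 6.19 FPKM in KO tumors and 6.12 ± 0.664 FPKM in WT tumors (SD, n = 3 each). Ddx58, the RNA sensor RIG-I, averaged 10.4 ± 1.55 FPKM in KO tumors and 6.03 ± 0.378 FPKM in WT tumors. Differences were smaller for Ifih1, the RNA sensor MDA5 (0.44 ± 0.20), and for Eif2ak2, the kinase PKR that halts translation (0.58 ± 0.17).

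Of the transcription factors, Irf7 stood apart. It drives interferon genes and is itself induced by interferon. Its FPKM was 64.7, 86.1 and 130 in the KO tumors and 24.7, 24.5 and 21.3 in the WT tumors. The KO tumors differed widely among themselves and still all lay above the WT tumors (1.90 ± 0.27, limma adjusted p = 0.0544). Irf1 averaged 21.4 ± 5.69 FPKM in KO tumors and 15.5 ± 2.77 FPKM in WT tumors, with overlap, and Irf9 15.1 ± 1.80 and 15.6 ± 1.64 FPKM. The entry of Stat2 and Apof had 266, 298 and 304 FPKM in the KO tumors and 345, 332 and 363 FPKM in the WT tumors, the reverse order of most members (-0.26 ± 0.20, limma adjusted p = 0.548).

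Interferon-induced GTPases act against viruses and intracellular microbes. Among those listed, the guanylate-binding proteins Gbp2, Gbp3 and Gbp7 were separated and the others mostly were not. Gbp3 had 10.4, 5.53 and 6.84 FPKM in the KO tumors and 2.13, 1.63 and 2.39 FPKM in the WT tumors (1.46 ± 0.24, limma adjusted p = 0.0682). Gbp7 had 5.69, 3.44 and 4.18 FPKM in KO tumors and 1.93, 1.95 and 2.51 FPKM in WT tumors (0.78 ± 0.20). Gbp2 averaged 8.67 ± 3.30 FPKM in KO tumors and 2.62 ± 1.88 FPKM in WT tumors. There, WT tumor 3 at 4.76 FPKM came close to KO tumor 3 at 5.04 FPKM. Separation was not shared by the Gbp genes outside the list. Gbp4 (joined with Gbp9), Gbp5, Gbp6, Gbp8 and Gbp10 all overlapped between KO and WT tumors. The KO tumor mean was the lower one for Gbp10 and the higher one for the rest. Mx1, which blocks influenza virus in mouse, averaged only 2.38 ± 1.01 FPKM in KO tumors and 0.758 ± 0.23 FPKM in WT tumors. Its neighbour Mx2 overlapped between the groups at 2.88 ± 0.589 and 2.5 ± 0.114 FPKM. The IRG proteins Igtp and Irgm1 overlapped as well. Irgm1 had 28.6, 33.3 and 22.3 FPKM in the KO tumors and 24.0, 23.5 and 36 FPKM in the WT tumors (0.02 ± 0.24), a difference whose sign changed with median-of-ratios scaling.

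Isg15 encodes the ubiquitin-like protein that is coupled to other proteins during the response. It had 63.8, 58.0 and 60 FPKM in the KO tumors and 32.2, 20.3 and 12.7 FPKM in the WT tumors. The KO tumors were tightly grouped and the WT tumors spread widely (1.53 ± 0.32, limma adjusted p = 0.0917). Usp18, which removes Isg15 from proteins and dampens receptor signalling, had 15.9, 11 and 22.7 FPKM in the KO tumors and 10.6, 6.41 and 4.17 FPKM in the WT tumors, separated by little (1.14 ± 0.36). Herc6, the main Isg15 ligase of mouse, averaged 3.08 ± 0.293 FPKM in KO tumors and 1.75 ± 0.523 FPKM in WT tumors. Trim25, a ubiquitin ligase that assists RIG-I, overlapped between the groups at 18.5 ± 2.38 and 15.4 ± 0.71 FPKM.

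The Ifit proteins bind RNA without the host's cap, and Ifit3 was the only one of the 3 whose groups were separated. Ifit3 had 15.3, 8.90 and 23.3 FPKM in the KO tumors and 6.84, 7.73 and 5.30 FPKM in the WT tumors (1.06 ± 0.33, limma adjusted p = 0.178). Ifit1 averaged 5.83 ± 1.71 FPKM in KO tumors and 3.65 ± 1.60 FPKM in WT tumors. Ifit2 averaged 2.94 ± 1.46 FPKM in KO tumors and 2.15 ± 0.548 FPKM in WT tumors, and both overlapped. The ADP-ribosyltransferases Parp9 and Parp14 were each separated, with small log2 differences of 0.39 ± 0.18 and 0.49 ± 0.19.

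Of the 10 other effectors, 8 were separated upward, and Cmpk2 and Ifi27l2b were not. Xaf1, which opposes the apoptosis inhibitor XIAP, had 8.49, 13.4 and 11.1 FPKM in the KO tumors and 4.62, 3.40 and 2.30 FPKM in the WT tumors (1.45 ± 0.25, limma adjusted p = 0.0761). Bst2 had 313, 513 and 596 FPKM in the KO tumors and 219, 245 and 308 FPKM in the WT tumors, where KO tumor 1 and WT tumor 3 almost met (0.84 ± 0.31, limma adjusted p = 0.23). Larger log2 differences were those of Ifi27l2a, a small mitochondrial protein gene (1.98 ± 0.43), and Ifi44 (1.58 ± 0.42). Rtp4, a chaperone of membrane receptors, stood at 0.97 ± 0.19, Samd9l at 0.76 ± 0.20, Ifi35 at 0.62 ± 0.22 and Rsad2, the antiviral enzyme viperin, at 0.60 ± 0.22. Cmpk2, a mitochondrial nucleotide kinase next to Rsad2, had 0.41 ± 0.27. Ifi27l2b overlapped between the groups: 63.5, 66.8 and 68.6 FPKM in the KO tumors and 88.1, 64.5 and 58.0 FPKM in the WT tumors (-0.06 ± 0.21, limma adjusted p = 0.909).

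The number of calls in this comparison changed with the fit and with the libraries used. KO tumors varied most, with a median SD over all entries of 0.306 on the log2 scale, against 0.188 in WT tumors, 0.17 in KO livers and 0.16 in WT livers. A single fit of all 12 libraries, which shares the spread of all groups, called 20 members and 8.71% of all entries, every member upward. Without KO tumor 3, 4 members and 2.28% of all entries were called. Rescaling each library to a common sum gave 4 calls (0.206% of all entries) and quantile normalization 2 (0.137%).

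**Figure D2:**
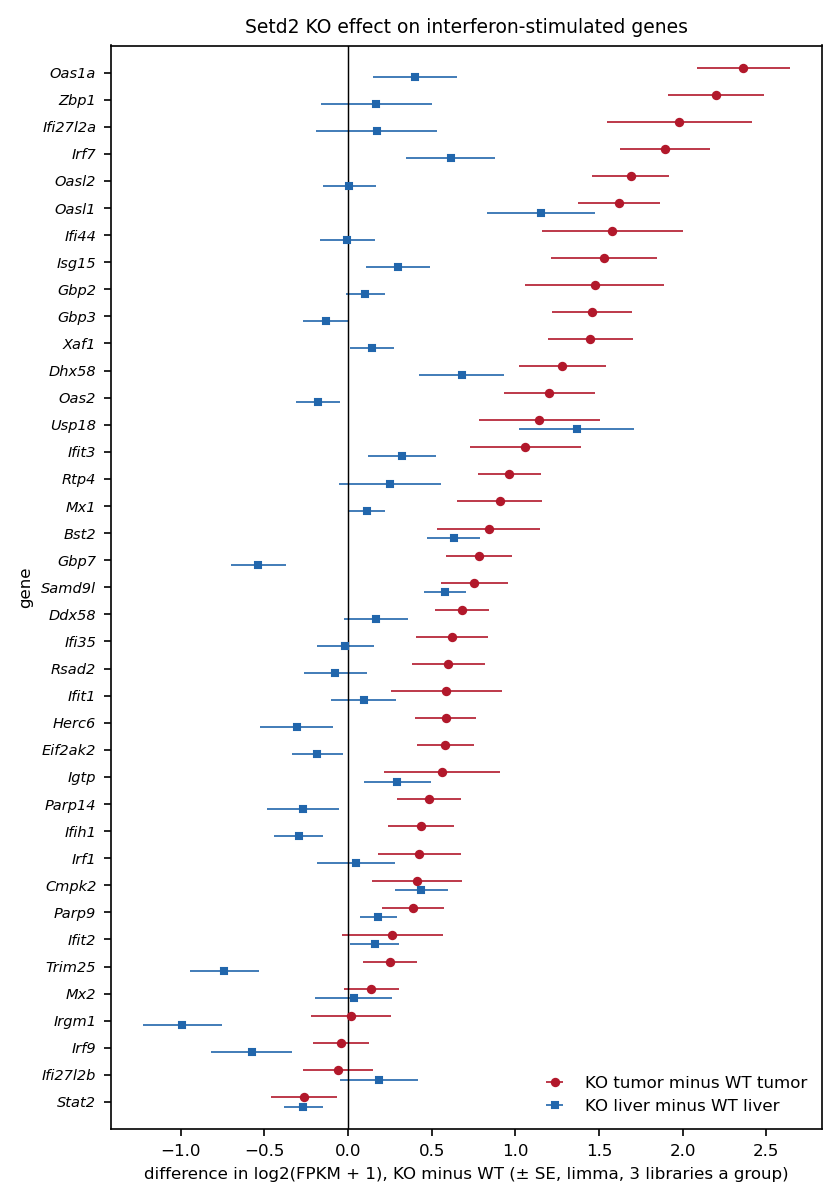
Difference in log2(FPKM + 1) between KO and WT for the 39 tested members, with SE from limma (3 libraries a group); red circles give tumor and blue squares normal liver, and genes are ordered by the difference in tumor. Red points run to 2.36 for Oas1a and nearly all are right of 0, while blue points lie on both sides of 0, between -0.99 for Irgm1 and 1.37 for Usp18.

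In normal liver, never exposed to DEN, the same genotypes gave a mixed picture. There, 4 members rose and 2 fell (6 called, 15.4%), a share near the 18.1% of all entries called (9.33% higher and 8.77% lower). At an unadjusted p below 0.05 limma gave 6 members higher and 4 lower, against 19.6% and 18% of all entries, and 25 members had a positive difference, as did 53.2% of all entries. The median log2 difference was 0.113 for the members and 0.031 for all entries, and the member median turned to -0.03 without KO liver 1. Groups did not overlap for 5 members higher in KO livers (12.8%) and 4 lower (10.3%), against 21.9% and 20.7% of all entries.

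The members that rose in KO livers act in different steps. Samd9l, which restrains translation and cell growth, had 2.98, 2.55 and 3.37 FPKM in the KO livers and 1.57, 1.55 and 1.82 FPKM in the WT livers (0.58 ± 0.13, limma adjusted p = 0.0267). Bst2 had 434, 306 and 342 FPKM in the KO livers and 235, 250 and 206 FPKM in the WT livers (0.63 ± 0.16, limma adjusted p = 0.0376). Usp18 had 11.8, 8.68 and 4.20 FPKM in the KO livers and 2.00, 3.5 and 1.78 FPKM in the WT livers. The KO livers spread widely here and the lowest stood just above the highest WT liver (1.37 ± 0.35, limma adjusted p = 0.0389). Oasl1 had 13.3, 7.65 and 20 FPKM in the KO livers and 6.20, 5.72 and 3.86 FPKM in the WT livers (1.16 ± 0.32, limma adjusted p = 0.0487).

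Both members that fell are among the more abundant ones. Irgm1, a regulator of the IRG GTPases and of autophagy in mouse, had 20.1, 15.4 and 17.1 FPKM in the KO livers and 25.7, 49.9 and 35.1 FPKM in the WT livers (-0.99 ± 0.24, limma adjusted p = 0.0336). Trim25 had 20.1, 11.2 and 13.2 FPKM in the KO livers and 23.7, 26.6 and 23.9 FPKM in the WT livers (-0.74 ± 0.21, limma adjusted p = 0.048). No KO liver reached a WT liver for either gene. Separated downward without a call were 2 further entries: the Stat2 entry, with 344, 300 and 345 FPKM in KO livers and 369, 432 and 389 FPKM in WT livers, and Gbp7, with 1.66, 0.793 and 1.41 FPKM in KO livers and 2.06, 2.54 and 2.21 FPKM in WT livers. Cmpk2 was separated upward without a call, at 1.20, 2.09 and 2.14 FPKM in KO livers and 0.943, 1.15 and 1.05 FPKM in WT livers.

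Zbp1 and Oasl2, far apart in tumors, overlapped between KO and WT in liver, unlike Oasl1. Zbp1 had 7.83, 3.63 and 3.93 FPKM in the KO livers and 2.52, 6.03 and 4.72 FPKM in the WT livers, and Oasl2 1.65, 1.03 and 1.10 FPKM against 1.03, 1.64 and 1.06 FPKM. The sign of the Zbp1 difference of 0.17 ± 0.33 turned without KO liver 1 or without WT liver 1. Irf7 had 41.4, 25.7 and 29.0 FPKM in KO livers and 18.1, 29.4 and 15.5 FPKM in WT livers (0.61 ± 0.27, limma adjusted p = 0.139). Which members limma called in liver changed with the libraries used. Without KO liver 1 there were again 6 calls, but 2 higher and 4 lower, and 3 of them were among the 6 above. Without KO liver 2 there were 4 higher and 0 lower. Only 1 member was called without KO liver 3 or without WT liver 1, and 0 without WT liver 2 or WT liver 3. The share of all entries called moved as well, from 18.1% with no library left out. It was 16.8% without KO liver 1, 6.69% without KO liver 2 and 5.6% without KO liver 3. It was 10.1% without WT liver 1, 5.32% without WT liver 2 and 2.06% without WT liver 3.

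The comparison of KO tumors with KO livers was where most members passed the test. Of the 39 members, 22 rose and 0 fell (56.4%), against 14.3% of all entries called (9.09% higher and 5.17% lower). The median log2 difference was 0.966 for the members and -0.019 for all entries, and groups did not overlap for 29 members upward (74.4%) and 0 downward, against 21.3% and 19.8% of all entries. At an unadjusted p below 0.05, limma gave 30 members higher and 0 lower, against 18% and 15.7% of all entries, and 36 members had a positive difference, as did 48.6% of all entries. Called members came from every role class but 1, the ADP-ribosyltransferases: Irf7, 4 of 5 sensors (Ddx58, Ifih1, Zbp1 and Eif2ak2), 3 of 4 tested oligoadenylate synthetases (Oas1a, Oas2 and Oasl2), all 3 Ifit genes, 4 of 7 GTPases (Mx1, Gbp2, Gbp3 and Gbp7), Isg15 and Herc6, and 5 of 10 other effectors (Ifi27l2a, Ifi27l2b, Ifi44, Xaf1 and Rtp4).

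The largest rise was that of Ifi27l2b, with 63.5, 66.8 and 68.6 FPKM in the KO tumors and 6.18, 3.30 and 4.47 FPKM in the KO livers (3.60 ± 0.21, limma adjusted p = 0.00294). Oas1a had 18.3, 20.1 and 20.1 FPKM in the KO tumors and 3.62, 1.91 and 1.61 FPKM in the KO livers (2.65 ± 0.23, limma adjusted p = 0.00484). Zbp1, at 29.8 to 40.6 FPKM in KO tumors and 3.63 to 7.83 FPKM in KO livers, rose by 2.56 ± 0.28 (limma adjusted p = 0.00698). All 3 had a gap between the groups larger than either group's own range. Isg15, at 58.0 to 63.8 FPKM in KO tumors and 10.5 to 16.7 FPKM in KO livers, rose by 2.14 ± 0.20 (limma adjusted p = 0.00546). Gbp3 had 5.53 to 10.4 FPKM in KO tumors and 0.831 to 1.42 FPKM in KO livers (2.01 ± 0.24, limma adjusted p = 0.00797), and Xaf1 had 8.49 to 13.4 FPKM and 2.22 to 2.54 FPKM (1.79 ± 0.19, limma adjusted p = 0.00698).

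Members not called between KO tumor and KO liver were of 2 kinds. Dhx58, Parp14, Samd9l, Rsad2, Irgm1, Igtp and Cmpk2 had no overlap between the groups and missed the threshold, with log2 differences from 0.56 to 1.15. The others overlapped, among them Oasl1, Usp18 and Bst2, which were also called higher in KO than in WT livers. Samd9l, called higher there as well, is of the first kind. Whether the level in KO livers bears on the missing calls was not tested. Bst2 stood at 313 to 596 FPKM in KO tumors and 306 to 434 FPKM in KO livers, and Parp9 at 17.4 to 25.1 FPKM in KO tumors and 23.7 to 26.0 FPKM in KO livers. Rescaling each library to a common sum raised the median of all entries by 0.378, which turned the small negative differences of Parp9 and Stat2 positive; the member median was then 1.41 beside 0.359 for all entries. With each library left out in turn, 8 members were called every time: Zbp1, Oas1a, Oasl2, Gbp3, Isg15, Ifi27l2a, Ifi27l2b and Xaf1. The number called was 11 without KO tumor 1 (4.54% of all entries), 12 without KO liver 1 (2.63%) and 8 without KO liver 2 (1.18%) or KO liver 3 (1.11%).

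WT tumors differed from WT livers in fewer members. Of the 39 members, 5 rose and 2 fell (17.9%), beside 17% of all entries called (8.01% higher and 8.96% lower). At an unadjusted p below 0.05 limma gave 12 members higher and 3 lower, against 15.7% and 19.5% of all entries, and 29 members had a positive difference, as did 45.9% of all entries. The median log2 difference was 0.367 for the members and -0.041 for all entries. Without overlap, 13 members were higher (33.3%) and 4 lower (10.3%), against 18.5% and 23.8% of all entries.

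Ifi27l2b was again far ahead, with 88.1, 64.5 and 58.0 FPKM in the WT tumors and 3, 5.13 and 3.67 FPKM in the WT livers. Its rise of 3.85 ± 0.21 (limma adjusted p = 0.00043) passed the test under every alternative setting tried and without any 1 library. Ifit2 had 1.87, 2.79 and 1.81 FPKM in the WT tumors and 0.487, 0.707 and 0.314 FPKM in the WT livers (1.06 ± 0.17, limma adjusted p = 0.0119). Cmpk2 had 1.66, 2.48 and 2.15 FPKM in the WT tumors and 0.943, 1.15 and 1.05 FPKM in the WT livers (0.59 ± 0.14, limma adjusted p = 0.0351). Ifit2 and Cmpk2 are low in WT liver, near 1 FPKM or under it. Samd9l had 3.12, 2.46 and 2.81 FPKM in the WT tumors and 1.57, 1.55 and 1.82 FPKM in the WT livers (0.52 ± 0.13, limma adjusted p = 0.0358), and Usp18 had 10.6, 6.41 and 4.17 FPKM in WT tumors and 2.00, 3.5 and 1.78 FPKM in WT livers (1.19 ± 0.32, limma adjusted p = 0.045).

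Trim25 and Parp9 were lower in WT tumors. Trim25 had 16.2, 15.2 and 14.8 FPKM in the WT tumors and 23.7, 26.6 and 23.9 FPKM in the WT livers (-0.65 ± 0.11, limma adjusted p = 0.0117). Parp9, which works with the ubiquitin ligase Dtx3l, had 14.6, 15.6 and 14.9 FPKM in the WT tumors and 20.3, 24.0 and 21.1 FPKM in the WT livers (-0.51 ± 0.11, limma adjusted p = 0.0258). Neither was called after rescaling to a common sum, which raised the median of all entries by 0.267. Trim25 was then at -0.37 and Parp9 at -0.22. Calls numbered 2 without WT liver 3 (3.89% of all entries) and 3 without WT tumor 2 (9.35%), WT liver 1 (9.46%) or WT liver 2 (7.81%). They numbered 5 without WT tumor 1 (18.3%) and 9 (8 higher and 1 lower) without WT tumor 3 (10.9%).

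**Figure D3:**
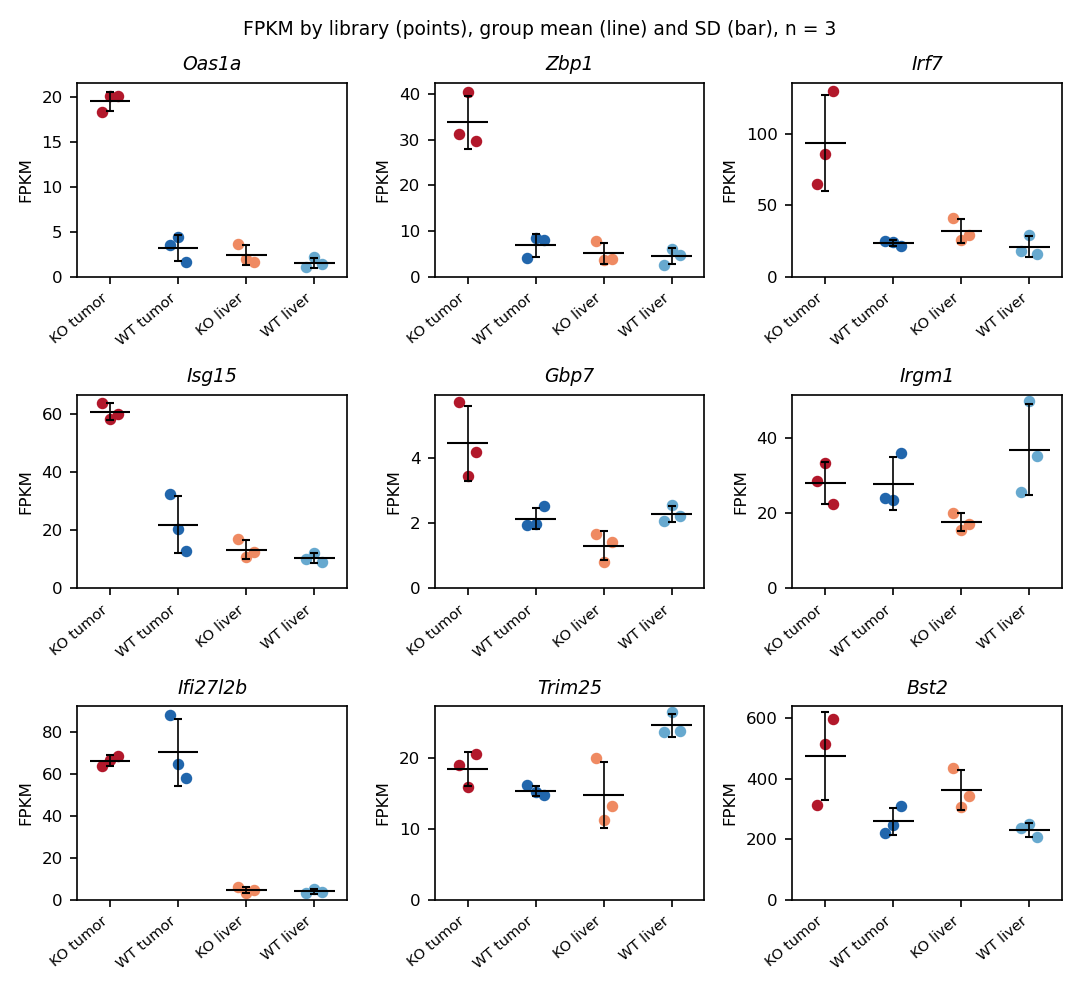
FPKM of 9 members in every library, with group means as lines and SD as bars (n = 3), on linear axes that start at 0. Oas1a, Zbp1, Irf7 and Isg15 are high in KO tumors alone, Ifi27l2b is high in both kinds of tumor, Trim25 is highest in WT livers, and Irgm1 is lowest in KO livers.

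Whether the KO effect itself differed between tumor and liver was tested as an interaction on all 12 libraries. That fit shares the spread of all groups, although the KO tumors varied most. Their median SD over all entries was 0.306, against 0.188 in WT tumors, 0.17 in KO livers and 0.16 in WT livers. Called were 5 members, all with the larger KO effect in tumor (12.8%), against 2.08% of all entries called (1.15% with the larger effect in tumor and 0.934% in liver). The median of this difference was 0.731 for the members and 0.022 for all entries. At an unadjusted p below 0.05, 21 members had the larger effect in tumor and 0 in liver, against 12.6% and 9.69% of all entries. The difference was positive for 36 members and 51.8% of all entries.

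Oasl2 differed by 1.68 ± 0.29 (limma adjusted p = 0.0275), Gbp3 by 1.59 ± 0.29 (limma adjusted p = 0.0278), Oas1a by 1.96 ± 0.40 (limma adjusted p = 0.0401) and Xaf1 by 1.30 ± 0.29 (limma adjusted p = 0.0478). For these 4 the KO effect in liver lay between -0.13 and 0.40. Gbp7 was unlike them, since its groups were separated in opposite directions, KO above WT in tumor and KO below WT in liver (difference 1.32 ± 0.27, limma adjusted p = 0.0379). Zbp1 had the largest difference, 2.03 ± 0.47, and with Oas2 at 1.38 ± 0.32 it missed the threshold at a limma adjusted p of 0.0527. At the other end, Usp18 (-0.22 ± 0.54), Cmpk2 (-0.03 ± 0.33), Samd9l (0.18 ± 0.23) and Bst2 (0.21 ± 0.35) showed no difference past their error. The 5 calls depended on single libraries, as did the calls over all entries. Without WT tumor 2, WT tumor 3, KO liver 2, KO liver 3, WT liver 2 or WT liver 3, 0 members were called, with 0.06% to 0.248% of all entries. There were 3 without KO tumor 1 (0.823% of all entries), 8 without WT tumor 1 (3.17%) and 10 without KO tumor 3 (11.7%).

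**Figure D4:**
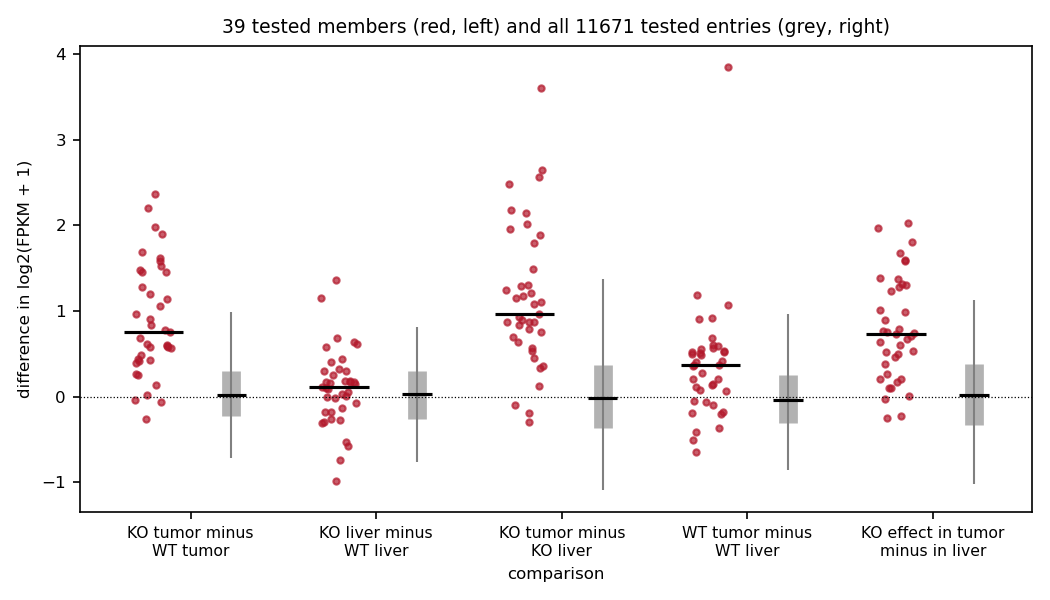
Difference in log2(FPKM + 1) in the 5 comparisons; each red point is 1 of the 39 tested members and the black line beside them their median, while grey bars span the 25th to 75th percentile of all 11671 tested entries, thin lines the 5th to 95th, and the black line their median. The member median stands at 0.756 between KO and WT tumors and at 0.113 between KO and WT livers, beside 0.018 and 0.031 for all entries.

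Upstream of the members, the interferon genes themselves were listed at or near 0. None of 21 interferon genes was tested, and 15 were listed at 0 in all 12 libraries. Their summed FPKM was 0.157 to 0.635 in KO tumors, 0 to 0.184 in WT tumors, 0.0478 to 0.123 in KO livers and 0 to 0.0448 in WT livers. Ifng, which encodes interferon gamma, had 0, 0.567 and 0.11 FPKM in the KO tumors and 0, 0 and 0.184 FPKM in the WT tumors. Ifnb1, which encodes interferon beta, was listed at 0.05 FPKM in KO tumor 2 and at 0 in the other libraries.

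Receptors and their kinases gave 0 calls between KO and WT tumors among 9 tested genes, and 0 at an unadjusted p below 0.05 in limma. Ifnar1, a receptor chain for type I interferon, had 9.01, 7.59 and 7.94 FPKM in the KO tumors and 8.01, 6.99 and 6.35 FPKM in the WT tumors. Its partner Ifnar2 averaged 60.5 ± 16.0 FPKM in KO tumors and 65.2 ± 5.6 FPKM in WT tumors. Jak1, the kinase shared by these receptors, averaged 28.2 ± 3.82 FPKM in KO tumors and 23.3 ± 4 FPKM in WT tumors. KO and WT tumors overlapped for each of these 3 genes. Ifngr1, a chain of the interferon gamma receptor, rose with the tumor in both genotypes, to 39.2 ± 14.4 FPKM in KO tumors against 11.7 ± 1 FPKM in KO livers (1.61 ± 0.26, limma adjusted p = 0.0146), and to 37.9 ± 6.82 FPKM in WT tumors against 12.7 ± 2.65 FPKM in WT livers (1.51 ± 0.19, limma adjusted p = 0.00568). Ifngr2 fell in KO livers (-0.70 ± 0.17, limma adjusted p = 0.0386). In tumors it went the other way without a call, at 19, 24.8 and 19.4 FPKM in KO and 17.7, 14.7 and 14.2 FPKM in WT. It was the 1 gene of this list separated upward there, against 13.8% of all entries. The interaction called 1 gene of the list, with the larger KO effect in tumor (11.1%, against 1.15% of all entries).

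Of 19 tested genes that sense nucleic acid or relay that signal, limma called 0 between KO and WT tumors. At an unadjusted p below 0.05, 6 were higher (31.6%) and 1 lower (5.26%), against 10.9% and 6.73% of all entries. The nearest to a call was the entry that joins Trex1, a nuclease that clears DNA from the cytosol, with Atrip. It had 13.1, 16.5 and 17.5 FPKM in the KO tumors and 8.17, 7.36 and 8.04 FPKM in the WT tumors (0.91 ± 0.17, limma adjusted p = 0.0783). These values cannot be credited to Trex1 alone. Unc93b1, which escorts Toll-like receptors to endosomes, had 31.4, 41.2 and 34.1 FPKM in KO tumors and 20.2, 21.1 and 19.7 FPKM in WT tumors. Irf8 and Samhd1 were separated in the same direction. Between KO tumor and KO liver, 5 genes of this list rose (26.3%, against 9.09% of all entries): Irf8, Samhd1, Rnaseh2b, Unc93b1 and Tmem173, which encodes STING. Between WT tumor and WT liver, Myd88 and Mavs, adaptors of sensor signalling, fell (10.5%, near the 8.96% of all entries).

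The 12 brakes on interferon signalling, which include the member Usp18, gave 0 calls in limma between KO and WT tumors. At an unadjusted p below 0.05, 2 were higher (Usp18 and Socs3, 16.7%) and 0 lower, against 10.9% and 6.73% of all entries. Socs3, an inhibitor of Jak kinases, had 6.53, 5.99 and 8.32 FPKM in the KO tumors, 4.32, 5.14 and 3.39 FPKM in the WT tumors, 5.01, 3.71 and 1.5 FPKM in the KO livers and 20.9, 23.3 and 33.0 FPKM in the WT livers. The WT livers alone were high. Socs3 fell in KO livers (-2.67 ± 0.33, limma adjusted p = 0.00912), as did Pias1, whereas Nlrx1, Ptpn6 and Usp18 rose there. In KO against WT livers 25% of the brakes were thus called higher and 16.7% lower, against 9.33% and 8.77% of all entries.

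Of 60 other entries of interferon-induced genes, 58 were tested. Between KO and WT tumors limma called 0 of them, with a median log2 difference of 0.646. At an unadjusted p below 0.05, 27 were higher (46.6%) and 2 lower (3.45%), against 10.9% and 6.73% of all entries. Slfn2 had 16.6, 17.8 and 11.7 FPKM in the KO tumors and 4.34, 2.83 and 4.09 FPKM in the WT tumors (1.78 ± 0.22, limma adjusted p = 0.0512). Oas1c, Phf11d and Uba7, the activating enzyme for Isg15, were separated in the same direction. Cxcl11, an interferon-induced chemokine gene, ran the other way, at 1.5, 1.18 and 1.60 FPKM in the KO tumors and 6.45, 4.63 and 4.35 FPKM in the WT tumors (-1.33 ± 0.19, limma adjusted p = 0.0512). Between KO tumor and KO liver 21 of the 58 rose (36.2%) and 1, Dtx3l, fell (1.72%), against 9.09% and 5.17% of all entries. Between WT tumor and WT liver 7 rose (12.1%) and 1, again Dtx3l, fell (1.72%), against 8.01% and 8.96%. In KO against WT livers 6 rose (10.3%) and 3 fell (5.17%), against 9.33% and 8.77%.

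Pan-leukocyte markers and some macrophage markers stood higher in the KO tumors. Of 8 pan-leukocyte markers, 7 had all KO tumors above all WT tumors, as did 13.8% of all entries. The summed FPKM of the 8 was 140 to 235 in KO tumors, 60.6 to 96.6 in WT tumors, 77.5 to 89.6 in KO livers and 64.9 to 84.6 in WT livers. Of 14 tested markers of macrophages and Kupffer cells 7 were separated upward, against the same 13.8% of all entries. The sum over 15 was 669 to 895 in KO tumors, 190 to 546 in WT tumors, 283 to 403 in KO livers and 304 to 469 in WT livers. Cd14 was the 1 called among them, at 57.2, 47.7 and 49.0 FPKM in the KO tumors and 7.70, 12.3 and 7.26 FPKM in the WT tumors (2.40 ± 0.23, limma adjusted p = 0.0306). The Kupffer cell markers Clec4f, Vsig4, Timd4, Marco and Cd5l overlapped. Clec4f had 12.5, 2.55 and 89.7 FPKM in the KO tumors and 54.5, 10.5 and 11.8 FPKM in the WT tumors, and KO tumor 2 was the lowest of the 12 libraries for Clec4f, Vsig4 and Cd5l. Stellate cell and fibroblast markers summed to 181 to 264 in KO tumors, 85.2 to 94.3 in WT tumors, 92.5 to 156 in KO livers and 56.4 to 85.5 in WT livers, and the hepatocyte sum, given above, was lower in every KO tumor than in every WT tumor.

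Other immune markers were low or split. Neutrophil markers summed to 23.0 to 61.7 in KO tumors and 9.28 to 10.4 in WT tumors. All 4 tested were separated upward, against 13.8% of all entries, and Ly6g was at 0 in 8 of 12 libraries. Markers of T and NK cells summed to 5.80 to 34.8 in KO tumors and 4.51 to 20 in WT tumors, and 0 of 4 tested were separated. The B and plasma cell sum was 11.7 to 21.5 in KO tumors and 28.4 to 63.4 in WT tumors. Without Ly6d, the plasmacytoid dendritic cell markers (6) summed to 0.551 to 2.83 in KO tumors and 1.56 to 4.23 in WT tumors. Ly6d itself, which other cells also make, had 144, 465 and 134 FPKM in the KO tumors, 40.1, 48.6 and 11.7 FPKM in the WT tumors, and 2.77 to 13.9 FPKM in KO livers against 3.96 to 22.4 FPKM in WT livers. Its KO tumors all lay above its WT tumors, unlike the sum over the rest of that list. The endothelial sum was 72.4 to 129 in KO tumors and 73.8 to 126 in WT tumors. The part of these cell types in the levels of the members was not tested, and in bulk tissue a change in the number of cells of a type and a change in RNA per cell cannot be told apart.

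Within normal liver the members also varied together by library. KO liver 1 was the highest KO liver for 31 of the 39 tested members (79.5%), as it was for 30.4% of all entries. WT liver 2 was the highest WT liver for 34 (87.2%), as it was for 38.1% of all entries. Isg15 had 16.7 FPKM in KO liver 1 against 10.5 and 12.3 FPKM in the other KO livers, and 12.2 FPKM in WT liver 2 against 10.1 and 8.88 FPKM in the other WT livers. Among KO tumors no library led in this way: KO tumor 1 was the highest for 14 members, KO tumor 2 for 12 and KO tumor 3 for 13. WT tumor 1 was the highest WT tumor for 19 (48.7%), as it was for 40% of all entries, WT tumor 2 for 11 and WT tumor 3 for 9. The median SD of the members on the log2 scale was 0.338 in KO tumors, 0.196 in WT tumors, 0.295 in KO livers and 0.205 in WT livers. Over all entries it was lower in KO livers, at 0.17.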

How the data were processed

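The deposited tables hold 1 FPKM value per gene name for each of 12 libraries. The authors made them with TopHat2 (version 2.1.1), Cufflinks (version 2.2.1) and genome build mm10, per the submitters' processing notes. Program settings and gene models: not given in the sources used here. Libraries were made from polyadenylated RNA with a kit that does not keep strand, per the labels' protocols, so overlapping genes on opposite strands cannot be told apart.

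Here log2(FPKM + 1) was fitted with limma 3.58.1 in R 4.3.3, with variance modelled as a trend on mean level, on the 6 libraries of a comparison or, for the interaction, on all 12. Tests were two-sided, with Benjamini-Hochberg adjustment over 11671 entries and a call at an adjusted p below 0.05. The added 1 understates changes of low genes. Errors beside FPKM are SD (n = 3) and beside log2 differences SE. The fit was tested on simulated data.

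The members and lists were chosen with earlier results of these data known. Every member is named. Values in every library or ranges are given for the most abundant of each role class and the 6 of smallest p in each comparison. Of the pathway lists a fixed set and up to 4 genes per list were named, and Tmem173, Rnaseh2b, Myd88, Mavs, Pias1, Nlrx1 and Dtx3l were chosen after their values were seen. Alternatives were pseudocounts of 0.1 and 5, no filter and a filter of mean FPKM 5, 3 other scalings, 1 fit of all libraries, a replicate block, and leaving out each library.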

Additional observations from a re-analysis of the deposited data

Results flagged for a closer look

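For 5 members the KO effect differed between tumor and normal liver by limma's interaction test, which is what singled them out. That test shares the spread of all groups, although the KO tumors varied most. The KO effect in tumor minus that in liver, on the log2 scale, was 1.96 for Oas1a (limma adjusted p = 0.0401), 1.68 for Oasl2 (0.0275), 1.59 for Gbp3 (0.0278), 1.32 for Gbp7 (0.0379) and 1.30 for Xaf1 (0.0478). For Gbp7 every KO tumor lay above every WT tumor and every KO liver below every WT liver. For the other 4 the KO and WT livers overlapped. No explanation for these differences was tested.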

How the results depend on the processing

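Across 62 single-gene results and their 987 recomputed values, 792 kept their direction and side of the threshold, 140 kept only the direction, 37 newly passed and 18 changed sign. Between KO and WT tumors (0 called, median 0.756), members called numbered 1 at a pseudocount of 5, 4 after rescaling to a common sum, 2 after quantile normalization and 20 in the fit of all 12 libraries. The median was 0.842 at a pseudocount of 0.1, 0.472 at 5, 0.683 with the filter of mean FPKM 5 and 0.940 after rescaling, and leaving out 1 library gave 0 to 4 calls and a median of 0.736 to 0.841. Between KO and WT livers (6 called, median 0.113) there were 0 calls with no filter and 0 to 6 with 1 library left out. The median was 0.188 at a pseudocount of 0.1, 0.042 at 5, and -0.03 to 0.187 with 1 library left out, negative without KO liver 1. Between KO tumor and KO liver (22 called, median 0.966) there were 2 calls with no filter, 8 with the filter of mean FPKM 5 and 8 to 22 with 1 library left out. The median was 1.159 at a pseudocount of 0.1, 0.582 at 5, 1.410 after rescaling, and 0.923 to 1.225 with 1 library left out. Between WT tumor and WT liver (7 called, median 0.367) there were 3 calls with no filter, 3 with the filter of mean FPKM 5, 4 after quantile normalization, 2 in the fit of all libraries, and 2 to 9 with 1 library left out. The median was 0.169 at a pseudocount of 5 and 0.664 after rescaling, where all 10 calls were upward. For the interaction (5 called, median 0.731) there were 3 calls at a pseudocount of 0.1, 0 with no filter, 1 with the filter of mean FPKM 5, 1 after rescaling, and 0 to 10 with 1 library left out; the median was 0.457 at a pseudocount of 5 and 0.888 after rescaling. With 1 library left out, the share of all entries called ran from 0 to 2.28% between KO and WT tumors and from 2.06% to 16.8% between KO and WT livers. It ran from 1.11% to 25.5% between KO tumor and KO liver, 3.89% to 18.3% between WT tumor and WT liver and 0.06% to 11.7% for the interaction. The filter settings change the number of entries tested, and the cause of the other changes was not tested.

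Rescaling to a common sum moved the median of all entries by 0.107 between KO and WT tumors, 0.378 between KO tumor and KO liver, 0.267 between WT tumor and WT liver and 0.115 for the interaction, and the filter of mean FPKM 5 moved it by -0.135 between KO tumor and KO liver. Over 195 differences (39 members in 5 comparisons), 26 changed sign with some library left out, from -0.223 to 0.367 as fitted on all libraries, and 16 with another scaling, from -0.296 to 0.106. None of either was called. Of the 62 results, Irgm1 between KO and WT tumors was -0.050 with median-of-ratios scaling and -0.110 to 0.213 with 1 library left out. Zbp1 between KO and WT livers was -0.126 without KO liver 1, -0.113 without WT liver 1 and at most 0.386. Between KO tumor and KO liver, Parp9 was 0.120 after rescaling, and the Stat2 entry 0.244 after rescaling and 0.249 after quantile normalization. That entry was 0.113 and 0.060 under the same settings between WT tumor and WT liver. Its interaction was -0.044 with median-of-ratios scaling and -0.064 to 0.062 with 1 library left out.

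Replicate numbers are shared by the groups in the labels, and whether they pair the samples is left unsaid. The correlation of same-numbered deviations from group means ran from -0.276 to 0.347. It cannot decide this, with no value from known pairs to set beside it. With the replicate number as a block, members called were 0 between KO and WT tumors, 0 between KO and WT livers, 21 between KO tumor and KO liver, 3 between WT tumor and WT liver and 2 for the interaction. Of all entries, 0%, 1.31%, 12.2%, 10.6% and 0.977% were then called, in the same order.

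With 3 libraries a group, unknown depth and several members below 5 FPKM, small differences could not be resolved.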

Other observations

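Among interferon-induced genes outside the list of 40, the genes below were picked after their values were seen. Psmb8, a subunit of the immunoproteasome that cuts peptides for display on MHC class I, had 139, 326 and 129 FPKM in the KO tumors, 33.8, 45.1 and 39.6 FPKM in the WT tumors, 48.5, 41.6 and 51.5 FPKM in the KO livers and 24.5, 35.2 and 22.7 FPKM in the WT livers. KO lay above WT without overlap in both tissues. The gene rose in KO against WT livers (difference in log2(FPKM + 1) 0.78 ± 0.18 SE, limma adjusted p = 0.032) and in KO tumor against KO liver (1.92 ± 0.37, limma adjusted p = 0.0213), and missed the threshold between KO and WT tumors (2.17 ± 0.37, limma adjusted p = 0.0734). Its partner subunit Psmb9 rose in KO livers too (0.99 ± 0.20, limma adjusted p = 0.023).

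Iigp1, a GTPase of the same family as Irgm1 and Igtp, was lower in KO than in WT without overlap in both tissues, and passed the test in liver. It had 87.8, 33 and 47.2 FPKM in the KO tumors and 144, 89.3 and 97.9 FPKM in the WT tumors (-1.05 ± 0.38, limma adjusted p = 0.225). In liver it fell, to 56.5, 32.9 and 23.5 FPKM in KO against 72.9, 79.2 and 85.1 FPKM in WT (-1.14 ± 0.29, limma adjusted p = 0.0387).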
